A study of Mus spretus with 8 samples.

Results

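The genes described here encode the proteins that pass electrons to cytochrome P450 enzymes in the liver, and the hydrolases that open the epoxides P450 enzymes make. They were chosen by name (Por, Cyb5r3, Cyb5a, Cyb5b, Pgrmc1, Ephx1 and Ephx2), and every probe of the array annotated to 1 of these 7 symbols was taken. The annotation named 9 probes for 6 of the genes, out of 42957 probes and 22471 genes. Por has no probe under its symbol in that annotation and was not analysed here. Livers came from 8 males of SPRET/EiJ, an inbred strain of the mouse species Mus spretus, and each was hybridised to its own 1-colour array. The DDE group (4 mice of 7 weeks) ate Harlan chow carrying p,p'-DDE at 450 mg/kg, dissolved in corn oil, over 30 days. The control group (4 mice, whose age the labels do not give separately) ate the chow with corn oil and no p,p'-DDE. p,p'-DDE is the long-lived breakdown product of the insecticide DDT. Livers were measured as bulk tissue of 1 inbred strain and 1 sex, and in bulk tissue a change in the number of cells of a type cannot be told apart from a change in RNA per cell.

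Microsomal P450 enzymes cannot draw electrons from NADPH themselves. NADPH-cytochrome P450 reductase, the product of Por, hands electrons over through its bound flavins, and for some reactions cytochrome b5, itself reduced from NADH by cytochrome b5 reductase, supplies an electron as well. Many P450 products are epoxides, and epoxide hydrolases turn these into diols by adding water. In rodent liver the microsomal hydrolase Ephx1 is a known target of the xenobiotic receptor CAR and of NRF2, and the soluble hydrolase Ephx2 acts mainly on epoxides of fatty acids.

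All values below are as deposited and were read as log2 signals from their range. A change is DDE minus control with its 95% confidence interval from limma. A probe was called where its limma p was under 0.05 after Benjamini-Hochberg adjustment across the whole array. The 9 probes were above the background level in all 8 arrays, which lay between 7.55 and 7.81 (the 0.95 quantile of odorant and vomeronasal receptor probes). The highest value was 16 on every array, and values within 0.1 of it were taken as the top of the scale. Patches of spots with a shared shift in signal, called stained here, covered from 0.521% to 9.50% of the spots of an array. They touched 4 of the 72 spots used for the 9 probes, all 4 in control 3 or control 4. The 8 hepatocyte markers examined (among them Alb, Ttr and Hnf4a) were above background on all arrays, and 0 of them were called. Their mean log2 signal ran from 14.23 to 14.62 in DDE livers and from 14.32 to 14.68 in controls. Alb, Serpina1c, Apoa2, Fgb and Ttr were at the top of the scale in 2 or more livers of each group. A difference in these could therefore be hidden.

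Of the 9 probes, 1 was called higher and 0 were called lower, against 2.34% of all probes called higher and 0.661% called lower. At an unadjusted p under 0.05, 4 were higher and 1 was lower, against 10.7% and 4.22% of all probes. The groups did not overlap at 4 probes, with the DDE livers above at 3 of them and below at 1, against 8% and 3.80% of all probes. The shares were larger among bright probes. Among the 5655 probes at least as bright as the dimmest of the 9, 8.36% were called, 33.7% had an unadjusted p under 0.05 and 23.9% did not overlap. The median change of the 9 probes was 0.26, against 0.02 over all probes. Cyb5r3, Cyb5b and Ephx1 each enter that median with 2 probes. With each of the 6 genes read at its brightest probe the median was 0.06, against 0.02 over all genes.

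**Figure D1:**
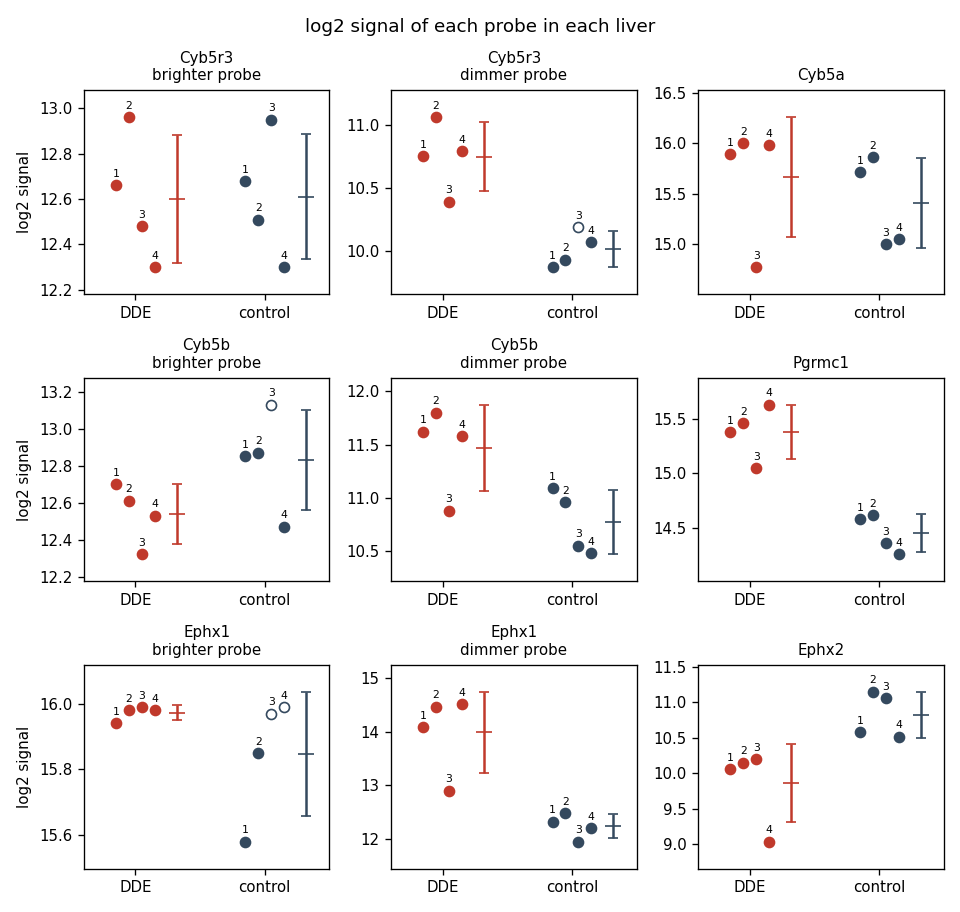
log2 signal (vertical axes, 1 panel per probe) of each DDE and control liver, with the replicate number beside each point, open points for stained spots and the mean with its SD to the right. The groups do not overlap for Pgrmc1, Ephx2 and the dimmer probes of Cyb5r3 and Ephx1, and the brighter probe of Ephx1 lies at the top of the scale.

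The reductase side was represented by Cyb5r3, the NADH-dependent flavoprotein that reduces cytochrome b5, and its 2 probes differed. The brighter probe read 12.66, 12.96, 12.48 and 12.30 in DDE livers, against 12.68, 12.51, 12.95 and 12.30 in controls. The groups overlapped over their whole range, and the change was -0.01 (-0.45 to 0.43, limma adjusted p = 0.983). The dimmer probe read 10.75, 11.06, 10.39 and 10.79 in DDE livers, against 9.87, 9.93, 10.19 and 10.07 in controls. Here each DDE liver lay above each control, and the change was 0.73 (0.38 to 1.08), or 1.66-fold, with a limma adjusted p of 0.0512 that missed the threshold. The highest control value of this probe, control 3, was on a stained spot whose neighbours were 0.31 above their usual level. With stained spots left out the change was 0.79 (adjusted p = 0.0463), and without DDE 3 it was 0.85 (adjusted p = 0.0373). Probe sequences were not used here, so which Cyb5r3 transcripts each probe detects was not tested.

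The cytochromes b5 are small haem proteins that carry electrons to P450 enzymes and to fatty acid desaturases. Cyb5a, the form of the endoplasmic reticulum, had values of 15.89, 16, 14.77 and 15.98 in DDE livers, against 15.71, 15.86, 15 and 15.05 in controls. The groups overlapped, with DDE 3 the lowest of all 8 livers. Its change was 0.26 (-0.55 to 1.06, limma adjusted p = 0.718), and 2 of the 4 DDE values stood at the top of the scale, so that a larger rise could not have been read. The interval reached from a fall to 0.685 of the control level to a rise of 2.08-fold.

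Cyb5b, the form of the outer mitochondrial membrane, had 2 probes with changes of opposite sign. The brighter probe read 12.70, 12.61, 12.32 and 12.53 in DDE livers, against 12.85, 12.87, 13.13 and 12.47 in controls. Control 4 lay among the DDE livers and the other controls above them, with control 3 on a stained spot (neighbours 0.42 above their usual level). The change was -0.29 (-0.65 to 0.07, limma adjusted p = 0.462). At the dimmer probe the DDE livers read 11.62, 11.80, 10.88 and 11.58, against 11.09, 10.96, 10.55 and 10.48 in controls. All DDE livers but DDE 3 were above every control, and the change was 0.70 (0.15 to 1.25, limma adjusted p = 0.199). Neither probe was called in any alternative. The changes of Cyb5a and of the brighter Cyb5b probe were also set against each other within each array. The change of Cyb5a minus that of Cyb5b was 0.55, which an exact two-sided permutation test of the 8 arrays did not separate from 0 (p = 0.171, and 0.171 after adjustment over 2 such pairs). Without 1 array the difference lay between 0.31 and 0.77. With the dimmer Cyb5b probe, a choice made after the values were seen, the difference had the other sign, at -0.45 (exact permutation p = 0.0286, the smallest that 4 against 4 allows, and 0.0286 after adjustment). The direction of the difference thus depended on the Cyb5b probe, and in both forms 2 of the 4 DDE values of Cyb5a were at the top of the scale, which can understate its change.

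Pgrmc1 was the 1 gene of the 6 that was called. It encodes a membrane-bound haem protein with a cytochrome b5-like fold that binds P450 enzymes and has been reported to modulate their activity. The DDE livers read 15.38, 15.46, 15.05 and 15.63, against 14.58, 14.62, 14.36 and 14.26 in controls. The lowest DDE liver, DDE 3, was above the highest control. The mean was 15.38 ± 0.24 in DDE livers and 14.46 ± 0.17 in controls (SD, n = 4 each). The change was 0.93 (0.59 to 1.26), or 1.90-fold, with a limma adjusted p of 0.0243. None of its 8 spots was stained, the spots around that of DDE 4 were 0.26 above their usual level, and none of its values was at the top of the scale. The call was lost when DDE 1 was left out (change 0.93, adjusted p = 0.0708), DDE 2 (0.90, 0.0817), control 2 (0.98, 0.0579) or control 3 (0.89, 0.0704), although the change itself stayed between 0.84 and 1.04 in the 8 fits without 1 array. It was also lost without control 4 and DDE 4 together, the arrays with most stained spots (0.78, adjusted p = 0.0506).

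The 3 genes whose log2 profile over the 8 livers lay closest to that of Pgrmc1 were sought among 4159 genes with a mean signal of at least 10, by the root mean square difference after each profile was centred. They were Pigp, which encodes a subunit of the enzyme that starts glycosylphosphatidylinositol anchors (root mean square difference 0.108), Klc4, a kinesin light chain gene (0.115), and Gm6594, a symbol without a described function in the annotation (0.130). The median difference over all 4159 genes was 0.564. Pigp averaged 11.38 ± 0.31 in DDE livers and 10.38 ± 0.20 in controls, with DDE 4 the highest and DDE 3 the lowest DDE liver, the same order at both ends as Pgrmc1. Because Pigp was chosen for its likeness over these same livers, the shared order is not a further observation.

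**Figure D2:**
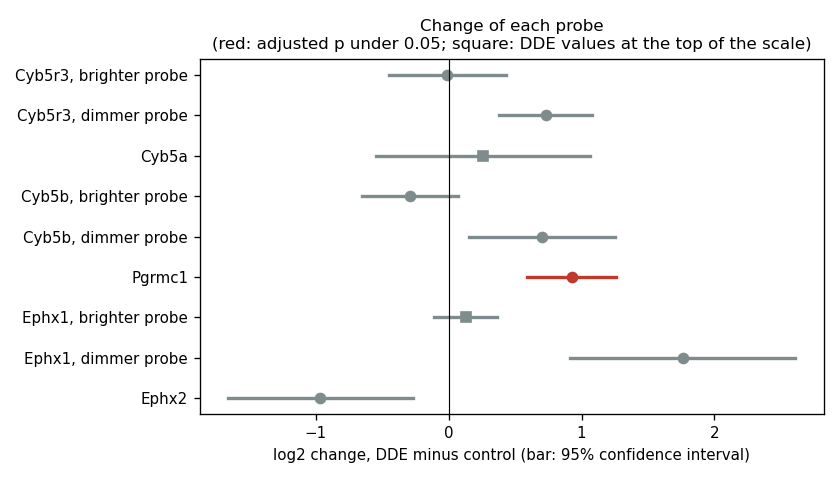
log2 change of each probe, DDE minus control (horizontal axis), with bars for the 95% confidence interval. Pgrmc1, in red, was called at 0.93, the interval of the dimmer Ephx1 probe ran from 0.91 to 2.61 without a call, and squares mark Cyb5a and the brighter Ephx1 probe, whose DDE values reached the top of the scale.

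The changes of the epoxide hydrolases had opposite signs, positive for Ephx1 and negative for Ephx2, and neither gene was called. Ephx1, the microsomal hydrolase that detoxifies epoxides of drugs and aromatic compounds, was read by 2 probes. Its brighter probe had little room to show a rise. It read 15.94, 15.98, 15.99 and 15.98 in DDE livers, against 15.58, 15.85, 15.97 and 15.99 in controls. All 4 DDE values and 2 of the control values were at the top of the scale. The 2 controls at the top, control 3 and control 4, lay in stained patches whose neighbouring spots were 2.33 and 1.53 above their usual levels. The change as measured was 0.13 (-0.11 to 0.36, limma adjusted p = 0.633), with values of both groups held at the top of the scale. With stained spots left out it was 0.26 (adjusted p = 0.244), and after the local shift was subtracted it was 1.16 (adjusted p = 0.251). The subtraction took 2.33 and 1.53 from controls 3 and 4, whose values were held at the top of the scale. It can therefore lower them too far, and 1.16 may be too large.

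The dimmer Ephx1 probe lay below the top of the scale and had no stained spot. It read 14.09, 14.47, 12.90 and 14.52 in DDE livers, against 12.32, 12.48, 11.95 and 12.20 in controls. Each DDE liver was above each control, and DDE 3 stood apart below the other 3 DDE livers. The change was 1.76 (0.91 to 2.61), or 3.38-fold (1.88 to 6.09), and larger than that of 99.2% of all probes. Its limma adjusted p was 0.0531, just outside the threshold, while the SD was 0.75 in DDE livers and 0.22 in controls (n = 4 each). Without DDE 3 the change was 2.12 and the adjusted p 0.0124. The probe passed in 5 of 16 alternatives and missed the threshold in the others, with adjusted p-values up to 0.144 (without DDE 2).

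Ephx2, the soluble hydrolase that turns epoxides of arachidonic and linoleic acid into diols, was lower in each DDE liver than in each control. It read 10.06, 10.15, 10.20 and 9.04 in DDE livers, against 10.58, 11.15, 11.06 and 10.52 in controls. DDE 4 lay apart below the other 3 DDE livers. The change was -0.97 (-1.66 to -0.27), or 1.95-fold lower, and did not pass (limma adjusted p = 0.156). Without DDE 4 it was -0.69 (adjusted p = 0.109), a smaller difference with a lower p. None of the 8 spots was stained, and no alternative brought a call (lowest adjusted p = 0.0716, without control 4 and DDE 4).

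The 2 hydrolases were compared within each array. The brighter Ephx1 probe, at the top of the scale in 4 DDE and 2 control livers, varied little, so a difference taken with it mostly repeats the values of Ephx2. With that probe, the change of Ephx1 minus that of Ephx2 was 1.09 (exact two-sided permutation test, p = 0.0286, the smallest that 4 against 4 allows, and 0.0572 after adjustment over 2 pairs). With the dimmer Ephx1 probe in its place the difference in change was 2.72, with the same p and adjusted p. Both forms missed the threshold after adjustment. Over 2 pairs, an exact permutation p of 0.0286 becomes 0.0572 unless the p of the other pair is as small. The miss therefore does not measure the difference between the hydrolases. The first form was 0.81 without DDE 4 (adjusted p = 0.114). It was 2.13 with the local shift subtracted (adjusted p = 0.0572), which can overcorrect the 2 control values of Ephx1 at the top of the scale.

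**Figure D3:**
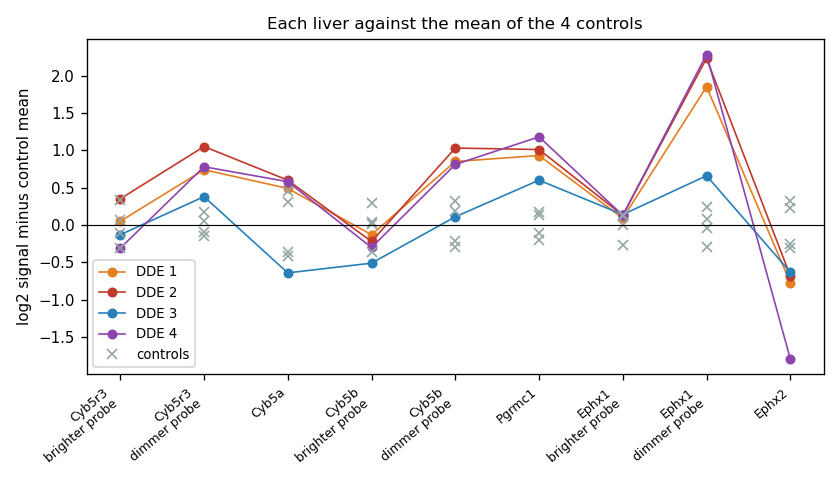
log2 signal of each liver minus the mean of the 4 controls (vertical axis) for the 9 probes (horizontal axis), with lines for the DDE livers and crosses for controls. DDE 3 was the lowest DDE liver at 6 of 9 probes, and at the dimmer Ephx1 probe it was 0.66 above the control mean while the others were 1.85 to 2.28 above it.

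The order of the livers was compared across these genes. DDE 3 was the lowest of the DDE livers at 6 of the 9 probes, namely Cyb5a, both Cyb5b probes, Pgrmc1 and the dimmer probes of Cyb5r3 and Ephx1. Over all probes this held for 22.5%, and for 26.8% of the 6537 probes with a mean of at least 10. At Cyb5a, the dimmer Cyb5b probe, Pgrmc1 and the dimmer Ephx1 probe, controls 3 and 4 were also both below controls 1 and 2. These are 4 of 9 probes, while the same order of controls was found at 29% of all probes and 42% of those with a mean of at least 10, so this count is near that of other bright probes. That order of the controls together with DDE 3 as the lowest DDE liver was found at 9.81% of all probes and at 18% of those with a mean of at least 10. This pattern was chosen after the values were seen and was given no test. The spots of these 4 probes had local shifts between -0.19 and 0.26.

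**Figure D4:**
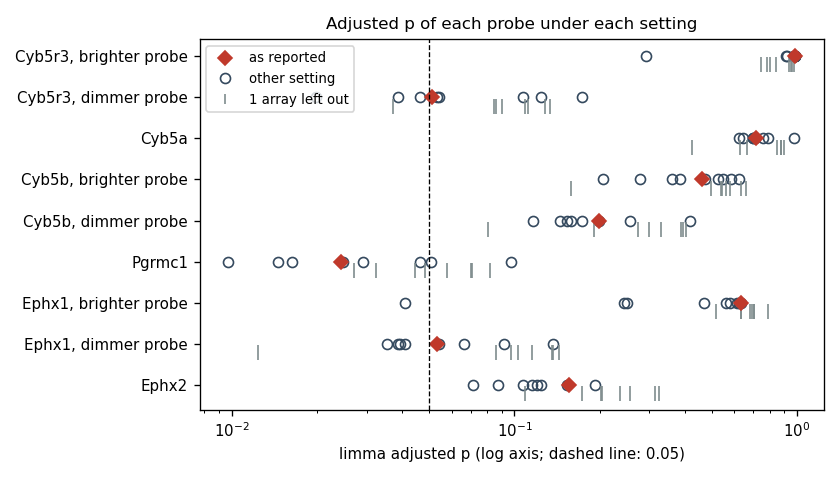
limma adjusted p (horizontal log axis, dashed line at 0.05) of each probe as reported (diamond), under other settings (circles) and with 1 array left out (ticks). Pgrmc1 and the dimmer probes of Cyb5r3 and Ephx1 lay on both sides of the line, and Ephx2 stayed to its right. The rows of the brighter Cyb5r3, Cyb5b and Ephx1 probes include a circle for the mean of the gene's 2 probes. For Ephx1 that circle lay left of the line (0.041).

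The P450 enzymes that these proteins serve were partly higher and partly lower. Lists of related genes were read at each gene's brightest probe, with 2.58% of all genes called higher and 0.774% called lower at that probe. Of 59 microsomal P450 genes, 13 were called higher, 4 lower and 42 not called, with a median change of 0.24 against 0.02 over all genes. Cyp2b10, which oxidises many drugs, was at least 124-fold higher (15.97 ± 0.03 in DDE livers and 9.01 ± 0.37 in controls, limma adjusted p = 2.44e-05). The other 3 named were Cyp2c55 (at least 37.3-fold), Cyp2b9 (24.6-fold or more) and Cyp2a4 (29.3-fold or more), all lower bounds that give no order. The 4 called lower were Cyp2c68 (5.50-fold), Cyp2c67 (5.01-fold), Cyp2u1 (2.07-fold) and Cyp4f14 (1.49-fold). Some genes not called at their brightest probe had other probes called higher, among them Cyp2c29, Cyp2c54 and Cyp3a11. Because Cyp2a, Cyp2b and Cyp2c genes share much sequence, a probe of 1 of them may also bind others. Of 6 mitochondrial P450 genes, which are served by ferredoxin and not by Por, 0 were called by limma, with 1 higher at an unadjusted p under 0.05. That 1 was Cyp27a1 of bile acid synthesis (11.86 ± 0.20 in DDE livers and 11.05 ± 0.32 in controls, adjusted p = 0.0647), whose 10 probes included 3 that were called higher. Cyp27a1 was also the only 1 of the 6 above background on all 8 arrays, so the others had little signal in which to read a change.

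P450 enzymes that make fatty acid epoxides, the substrates of Ephx2, were partly higher while Ephx2 itself read lower. Of 11 such genes measured, 5 were called higher and 0 lower, and the median change was 0.69. These 5 were Cyp2c55, Cyp2c38 (at least 11.1-fold), Cyp2c39 (at least 4.98-fold), Cyp2c37 (at least 3.44-fold) and Cyp2j6 (2.02-fold). The other probe of Cyp2c38 had a change of -0.84 and that of Cyp2j6 one of -1.16. Of the genes not called at the brightest probe, Cyp2c29 had 7 of 10 probes called higher and Cyp2c54 had 2 of 3. Their brightest probes were at the top of the scale in 4 and 2 DDE livers. At an unadjusted limma p under 0.05, 7 of the 11 genes were higher and 1 was lower. The lower 1, Cyp2c70, had a change of -0.96 (limma adjusted p = 0.135), with each DDE liver below each control. All 4 of its control values were at the top of the scale, so it was at least 1.95-fold lower. All 11 are also among the 59 microsomal genes. Of the 3 other epoxide hydrolase genes, 0 were called and 1, Ephx3, was lower at an unadjusted p under 0.05 (7.71 ± 0.16 in DDE livers and 8.10 ± 0.11 in controls, limma adjusted p = 0.0974), with 2 of its 4 DDE values not above background.

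The next lists held other carriers and the supply of cofactors. Of 10 related electron carriers measured, 0 were called by limma and 1 was higher at an unadjusted p under 0.05, Nenf, a secreted protein with a cytochrome b5-like domain (change 0.58, adjusted p = 0.308). Of 5 genes for NADPH supply, 2 were called higher and 0 lower. These were Pgd of the pentose phosphate pathway (1.85-fold, limma adjusted p = 0.0225) and Me1, the cytosolic malic enzyme (4.08-fold, adjusted p = 0.0414), the second at 1 of its 3 probes. Pgd was past the threshold in 9 of 16 alternatives and Me1 in 6 of 16. For Pgd, 2 of the 8 spots were stained, and the Pgd log2 change was 1.68 with the local shift subtracted (adjusted p = 0.0613). Flavin supply gave 0 calls among 3 genes, with 2 higher at an unadjusted p under 0.05. Rfk, the kinase that makes flavin mononucleotide, averaged 10.33 ± 0.40 in DDE livers and 9.27 ± 0.52 in controls (limma adjusted p = 0.132).

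In haem synthesis, 1 of 7 genes was called higher and 0 lower. This was Ppox, protoporphyrinogen oxidase (10.40 ± 0.13 in DDE livers and 8.90 ± 0.10 in controls, 2.83-fold, limma adjusted p = 0.00144). At an unadjusted p under 0.05, 2 were higher and 0 lower, Ppox and Alas1. The brighter Alas1 probe had the largest change of the list, 2.56 (limma adjusted p = 0.105), with each DDE liver above each control. Its other probe had a change of -0.14. Of 12 further enzymes that take electrons from Por or cytochrome b5, 2 were called higher and 0 lower, both of them fatty acid desaturases. Scd2 was 2.91-fold higher (limma adjusted p = 0.0198) and Fads1 1.57-fold (adjusted p = 0.0459), and they were past the threshold in 11 and 4 of 16 alternatives. Among 8 regulators of drug metabolism genes, 1 was called, Nr1i2, the receptor PXR (8.21 ± 0.11 in DDE livers and 7.59 ± 0.09 in controls, adjusted p = 0.0153). It was at least 1.43-fold higher, since only 1 of 4 controls was above background.

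**Figure D5:**
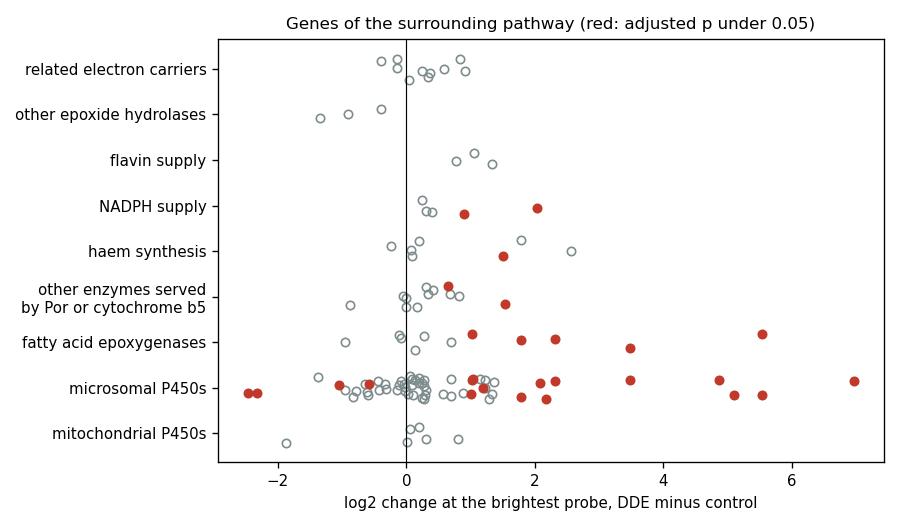
log2 change of each gene at its brightest probe, DDE minus control (horizontal axis), by list (rows), with called genes in red. Called genes reached 6.96 among the microsomal P450 genes and 2.03 in NADPH supply, and the rows of related electron carriers, other epoxide hydrolases, flavin supply and mitochondrial P450 genes hold none.

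Markers of other liver cells were read beside these results. Of 6 Kupffer cell, 5 endothelial, 4 cholangiocyte and 4 leukocyte markers, 0 were called by limma, with Cd5l of Kupffer cells lower at an unadjusted p under 0.05 (change -0.81). Of 5 stellate cell markers 1 was called, Reln, which was above background in 2 of 4 DDE livers and 0 of 4 controls and past the threshold in 5 of 15 alternatives. At an unadjusted p under 0.05, 4 stellate markers were higher and 1 was lower, and their mean signal ran from 9.45 to 9.82 in DDE livers and from 9.13 to 9.49 in controls. What part these markers have in the values of Pgrmc1, Ephx1 or Ephx2 was not tested.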

How the data were processed

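RNA of 8 livers (4 DDE, 4 control) was labelled with Cy3, per the labels' protocols. The authors deposited 1 table of values for 42957 probes, whose log2 scale was inferred here from their range. How signals were scanned, background-corrected and normalized was not stated in those labels. The arrays had medians of 7.46 to 7.47, and each had 40.2% to 46.9% of probes above background. The number of arrays limits the precision. The design text gives 4 mice a group, read here as 1 mouse per array, and p-values measure the spread between these mice.

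Gene symbols came from GEO's platform annotation, in which 33009 probes had 1 symbol, 0 had several and 9948 had none. limma 3.58.1 in R 4.3.3 was fitted to all probes with 2-sided p-values. A gene was represented by its brightest probe over all arrays, and every probe of the 7 chosen genes was read. From each other list, up to 4 called genes of largest change were named, or the gene of smallest p where none was called. Other genes in the text were named after their values were seen. The chosen genes and all lists were picked with earlier results of these data known. Stained spots had a median deviation beyond 0.3 in a window of 7 rows by 5 columns. Where a value was at background or at the top of the scale, background values were raised to the background level and the fold written as "at least". The limma step was tested on simulated data. The planned comparison of Por with Cyb5r3 could not be made.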

Additional observations from a re-analysis of the deposited data

Results flagged for a closer look

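Of 64 groups of 4 livers examined for a single value far from the other 3, 5 stood out, where chance alone gives a share of about 0.05. For Cyb5a, DDE 3 read 14.77, against 15.89 to 16 in the other DDE livers, with neighbouring spots shifted by -0.11. Of those other 3 values, 2 were at the top of the scale, which can narrow their spread and make DDE 3 stand out more. The share of about 0.05 does not allow for that. For Ephx2, DDE 4 read 9.04, against 10.06 to 10.20, with a local shift of -0.07. For the riboflavin kinase gene Rfk, DDE 4 read 9.73, against 10.47 to 10.56. For Cyp2b10, control 4 read 9.57, against 8.79 to 8.87 in the other controls. For the leukocyte gene Ptprc, DDE 4 read 8.45, against 7.74 to 7.86. The causes were not tested.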

How the results depend on the processing

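The 9 probes of the chosen genes were refitted under 16 alternatives each, or 17 where the mean of a gene's 2 probes was added beside its brighter probe. Pgrmc1 was past the threshold in 10 of 16 (adjusted p from 0.0097 to 0.0971), the dimmer Ephx1 probe in 5 of 16 (0.0124 to 0.144), the dimmer Cyb5r3 probe in 4 of 16 (0.0199 to 0.174), and Ephx2, Cyb5a and Cyb5b in none. Pgrmc1 was not past it with the replicate block (0.93, adjusted p = 0.0971) or without control 4 and DDE 4 together (0.78, 0.0506). Leaving out 1 array gave changes from 0.84 to 1.04 for Pgrmc1, from 1.58 to 2.12 for the dimmer Ephx1 probe, from 0.63 to 0.85 for the dimmer Cyb5r3 probe and from 0.04 to 0.17 for the brighter Ephx1 probe. The dimmer Cyb5r3 probe passed with array weights (0.79), without stained spots (0.79) and with the local shift subtracted (0.78), and the dimmer Ephx1 probe with array weights (1.76), without stained spots (1.76), without the dimmer 0.5 of the probes (1.76) and with the local shift subtracted (1.77). With the mean of its probes, Ephx1 passed at 0.94 (adjusted p = 0.041). The brighter Cyb5r3 probe kept its sign in 10 of 17 and the brighter Cyb5b probe in 16 of 17, without a call in any. For Cyb5b the exception was the mean of its 2 probes (0.21), so the brighter probe itself kept its sign in each refit. The mean of the 2 Cyb5r3 probes was 0.36.

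The count of these probes called higher was 2 without the dimmer 0.5 of the probes, 3 with array weights, without stained spots and with the local shift subtracted, 0 with the replicate block and without control 4 and DDE 4, and 0 to 3 with 1 array left out. Over all probes, 1005 were higher and 284 lower. These were 399 and 112 with an intensity trend and robust variance, 1607 and 533 with array weights, 8 and 1 with the replicate block, 271 to 1362 and 61 to 428 with 1 array left out. The lower count was 483 with the local shift subtracted and 443 without control 4 and DDE 4. Same-numbered arrays had correlated deviations in 3 of 4 pairs (r over probes from -0.117 to 0.278), and 2 of 4 DDE arrays correlated best with their own number, so the numbers were not taken as pairs. The differences in change ran from 0.31 to 0.77 (Cyb5a minus Cyb5b) and from 0.81 to 1.24 (Ephx1 minus Ephx2) with 1 array left out. With the local shift subtracted they were 0.46 and 2.13, with the dimmer Ephx1 probe the second was 2.72, and with the dimmer Cyb5b probe the first turned to -0.45 (adjusted p = 0.0286). The 2.13 rests on control values at the top of the scale from which the full shift was subtracted, and may be too large. The local shift, the other probes in these differences and the omission of control 4 with DDE 4 were chosen after the data were seen. The causes were not tested.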
